A study of Mus musculus with 2 samples.

Results

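The cells described here are the 58 tumor endothelial cells (TECs) with the highest levels of 9 interferon (IFN)-induced genes, among 230 ECs of 1 single-cell RNA library of E0771 tumors. The library is of CD45-/CD31+ cells sorted, after collagenase digestion, from pooled orthotopic tumors of E0771, a mammary carcinoma line of the mouse, and the labels give neither the number of tumors nor a strain or age for it. A second library holds CD45-/CD31+ cells of normal mammary glands (NECs) of C57BL/6 mice aged 6-8 weeks. Other labels of that library name TECs and E0771, and its title was followed. Cells carry no label of the mouse they came from, so the part of single animals or tumors cannot be told apart.

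Of 704 tumor barcodes, 484 had at least 200 genes and under 10% mitochondrial counts, 456 of these had no count of Ptprc, Myh11, Epcam or Cspg4, and 408 had at least 2000 counts of distinct mRNA molecules (UMIs). Of the 408, 230 had at least 2 UMIs of the endothelial junction genes Cdh5 and Pecam1 and fewer of Rhox5, Hmga2 and Krt8, which are high in the other cells of the library. Of the 178 cells left out, 169 held more UMIs of these 3 genes than of Cdh5 and Pecam1, and they are called cancer-like below. The 230 ECs were ranked by the summed counts per 1000000 UMIs (CPM) of Ifit1, Ifit3, Ifit3b, Rsad2, Oasl2, Usp18, Cmpk2, Ifi44 and Rtp4. The top 25% are the 58 interferon-high cells, the bottom 50% are the 115 low cells they were compared with, and 57 cells lie between them. No doublets were called or removed, and the largest UMI count was 40966 among the interferon-high cells and 55669 among the low cells.

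Interferons bind receptors that act through JAK kinases and factors of the STAT and IRF families, which switch on a broad set of IFN-stimulated genes. Type I IFN acts mainly through a DNA motif called the ISRE, whereas IFN-gamma acts mainly through the GAS motif. IFN-gamma favors GTPases, antigen presentation and the ligands of CXCR3, a chemokine receptor on T cells. In tumor vessels such genes bear on the recruitment of T cells, which bind chemokines and adhesion molecules on the endothelial surface.

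The cells were chosen by 9 genes, some of which are neighbors in the genome. Ifit3 (chr19:34583531-34588731), Ifit3b (chr19:34607970-34613401) and Ifit1 (chr19:34640871-34650009) lie side by side on the plus strand of GRCm38, downstream of Ifit2 (chr19:34550694-34576419), which was not used. Rsad2 (chr12:26442746-26456452, minus strand) and Cmpk2 (chr12:26469204-26479837, plus strand) are neighbors on chromosome 12. The others lie on separate chromosomes: Oasl2 on chromosome 5, Usp18 on chromosome 6, Ifi44 on chromosome 3 and Rtp4 on chromosome 16. Promoter windows from RefSeq (GRCm38.p6), 250 bases before to 50 bases after the start of a gene, were searched on both strands for the ISRE core GAAANNGAAA (TTTCNNTTTC on the other strand). Stretches with a match are shown in the direction of the gene, with each match in capitals, for 4 of the 9 genes and for Isg15 and Cxcl10, which were not used to choose the cells.
Ifit1, plus strand, chr19:34640770-34640828: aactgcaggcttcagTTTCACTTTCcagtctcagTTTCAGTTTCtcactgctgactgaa
Ifit3, plus strand, chr19:34583358-34583431: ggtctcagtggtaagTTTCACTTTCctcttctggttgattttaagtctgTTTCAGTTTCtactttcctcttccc
Ifit3b, plus strand, chr19:34607754-34607827: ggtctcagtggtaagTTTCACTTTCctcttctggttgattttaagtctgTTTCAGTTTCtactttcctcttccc
Rsad2, minus strand, chr12:26456548-26456587: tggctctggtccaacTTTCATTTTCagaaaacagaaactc
Isg15, minus strand, chr4:156200860-156200911: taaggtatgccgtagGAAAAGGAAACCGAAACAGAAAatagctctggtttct
Cxcl10, minus strand, chr5:92349078-92349117: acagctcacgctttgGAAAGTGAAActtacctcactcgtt
The stretch of Isg15 holds 3 matches that overlap. The stretches of Ifit3 and Ifit3b have the same letters, and reads of these near-identical genes may have been split between them or lost, so their separate levels are uncertain. Oasl2, Cmpk2 and Ifi44 held no match in the window, and windows of Usp18 and Rtp4 were not used here.

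The 9 genes were at 6042 CPM in the interferon-high cells, 1530 CPM in the middle cells and 600 CPM in the low cells. This difference was set by the choice of cells and is only a description. The level per cell fell without a break, from 22748 to 2191 CPM (median 4205) in the interferon-high cells to at most 1129 CPM in the low cells, of which 2 were at 0. At the limit, the last cell taken was at 2191 CPM (61 of 27835 UMIs) and the first not taken was at 2163 CPM (43 of 19878 UMIs). The share of the cells with a UMI was 91.4% for Ifit1, 100% for Ifit3, 98.3% for Rsad2, 98.3% for Oasl2, 94.8% for Usp18 and 96.6% for Rtp4, and in the low cells it ran from 33.0% for Ifit1 to 77.4% for Rtp4. The name interferon-high therefore rests on a range of levels, and no gap separates the cells from the rest.

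**Figure D1:**
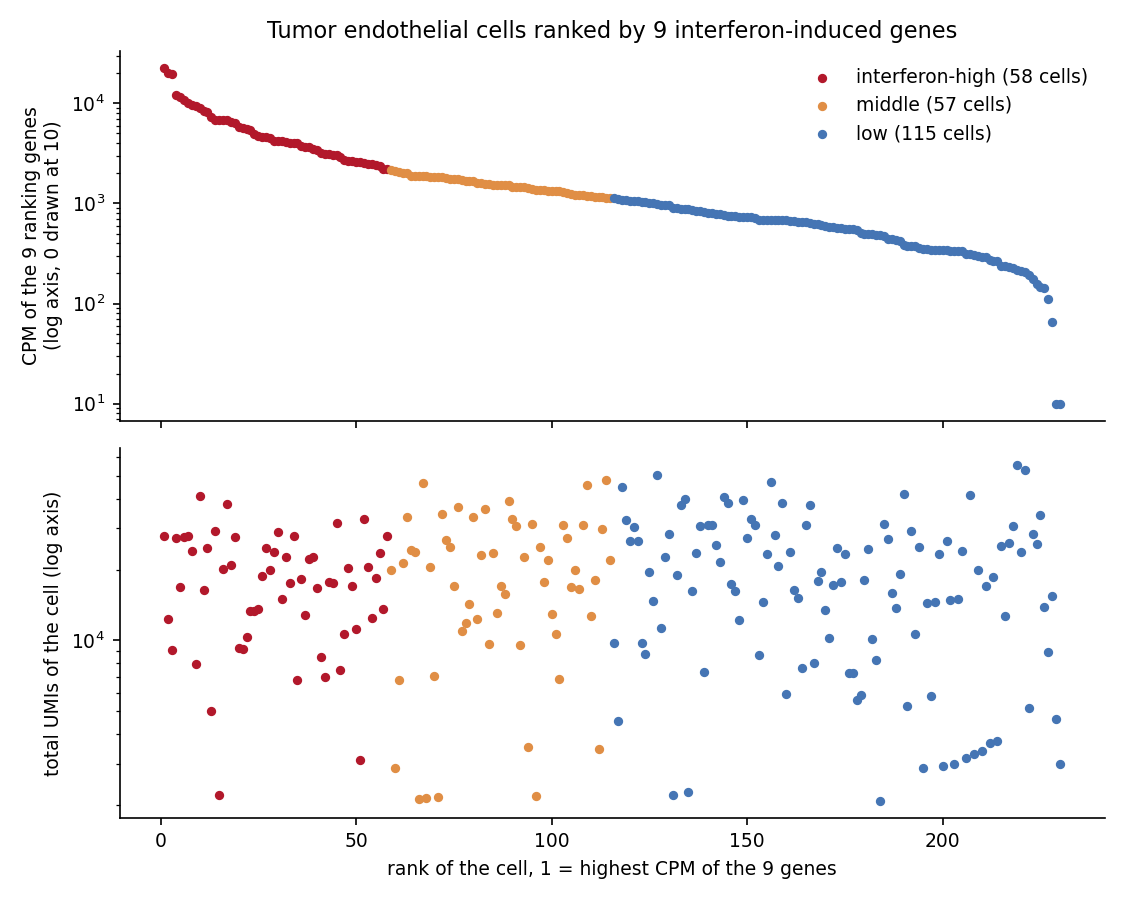
CPM of the 9 ranking genes (top, log axis) and total UMIs (bottom, log axis) of each of the 230 ECs of the tumor library, by rank, with 1 point for each cell and colors for the 3 groups. The ranking level falls without a gap at the limit of 2191 CPM, and the total UMIs spread alike in the 3 groups, with medians of 17932, 19901 and 18013.

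Depth and cell quality were close between the groups. The median was 17932 UMIs and 4212 genes in the interferon-high cells and 18013 UMIs and 4236 genes in the low cells, and mitochondrial UMIs were 3.52% and 3.81%. The groups held 1073792 and 2289034 UMIs in all. Cdh5 was at 1336 CPM and 1115 CPM and Pecam1 at 1075 CPM and 962 CPM, which the selection of ECs required, and 0 of the 14 pan-endothelial genes compared differed by 2-fold. Markers of other cells were near 0. Over 18 leukocyte genes the sum was 13.0 CPM in the interferon-high cells (0 to 133 CPM per cell) and 10.9 CPM in the low cells (0 to 336 CPM), with Cd3e at 0 in both and Lyz2 at 2 UMIs and 1 UMI. Over 9 fibroblast genes it was 8.38 and 5.68 CPM, over 10 mural genes 52.2 and 65.5 CPM, and over 8 platelet and red cell genes 7.45 and 8.74 CPM. Over 8 epithelial and cancer cell genes it was 7.45 CPM (0 to 470 CPM per cell) against 34.1 CPM (0 to 2641 CPM), and 119 CPM in the middle cells, with Hmga2 and Krt8, which the selection of ECs also used, at 0 in the interferon-high cells. Leukocytes and cells with Ptprc, Myh11, Epcam or Cspg4 were also kept out by the sort or the filter. The part of other cells in the results was not tested.

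Beyond the 9 genes, 5732 genes had a mean of at least 20 CPM over both groups and were compared. With 1 library a condition and cells that are not replicates, no test was made. Intervals are exact 95% intervals that cover counting error only, neither variation between animals nor that between cells. A gene is called higher or lower here at a 2-fold ratio of the summed CPM. Of the 5732, 262 (4.57%) were at least 2-fold higher in the interferon-high cells and 137 (2.39%) at least 2-fold lower, and the median log2 ratio was -0.02. The middle cells lay between both groups for 231 of the 262 and for 116 of the 137. Of the 262, 65 are on the lists of other type I IFN genes or IFN-inducible GTPases and 167 are on none of the lists used.

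**Figure D2:**
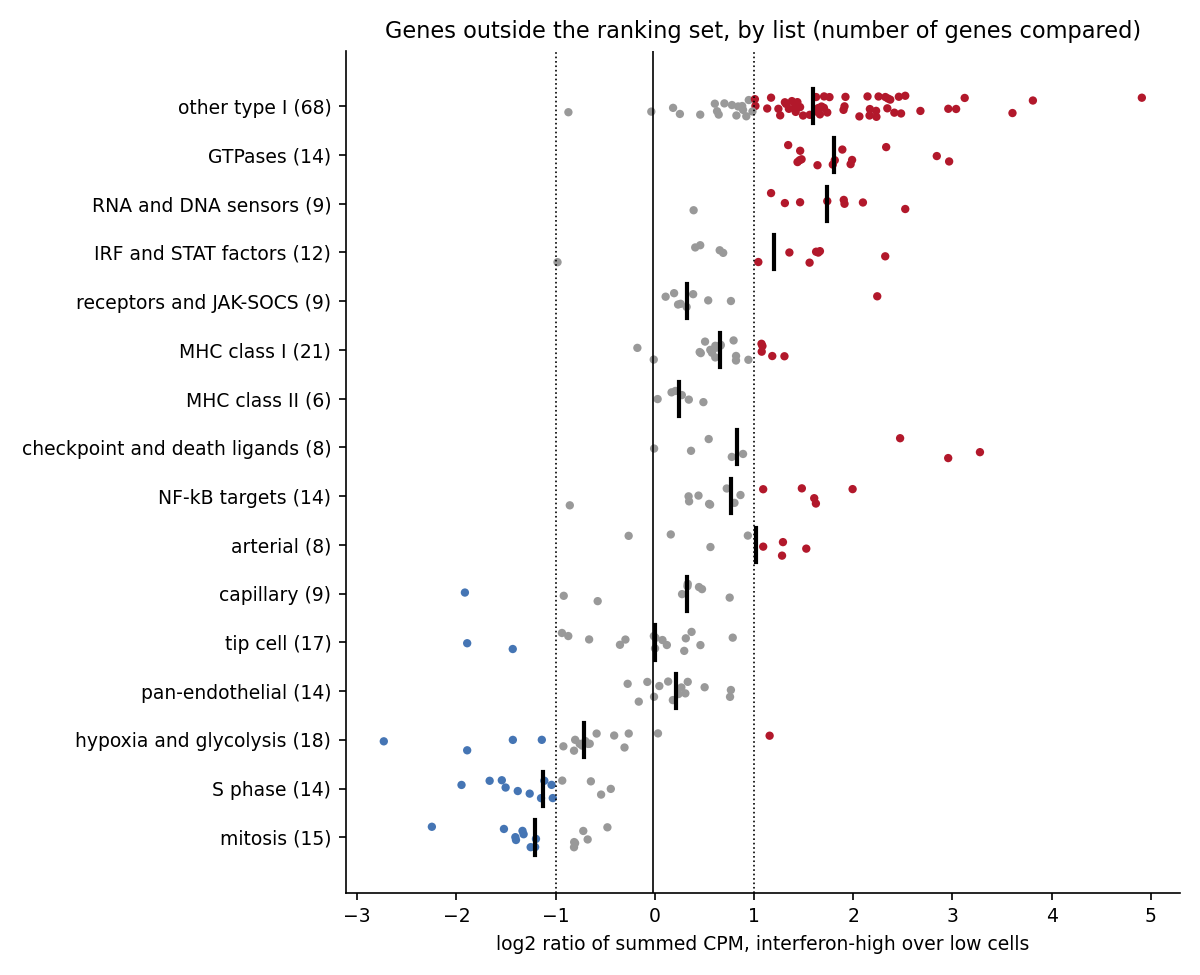
Log2 ratio of summed CPM, interferon-high over low cells (x axis), for each gene compared, grouped by list with the number of genes in brackets; thick bars are list medians, the thin line is the median of all 5732 genes and dotted lines mark 2-fold. All 14 GTPases and 51 of 68 other type I genes lie at or above 2-fold higher, and 9 of 15 mitosis genes lie at 2-fold lower or beyond.

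Other genes induced by type I IFN were higher with the 9. Of the 68 compared, 51 were at least 2-fold higher, 0 were 2-fold lower and 66 were above 0 on the log2 scale, with a median log2 ratio of 1.59. Summed, they were at 39632 CPM in the interferon-high, 27308 CPM in the middle and 19147 CPM in the low cells (log2 ratio 1.05, 1.03 to 1.07). Per cell the sum ran from 16808 to 68244 CPM (median 40393) in the interferon-high cells and from 4901 to 37071 CPM (median 19273) in the low cells. The groups overlapped, in that 37 of the 58 cells were above every low cell, while 57 of the 58 were above the median low cell and 0 of the 115 low cells reached the median interferon-high cell.

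Isg15, a ubiquitin-like modifier, was at 667 to 10880 CPM per cell (median 2781) in the interferon-high cells and 0 to 2096 CPM (median 495) in the low cells. Summed it was at 3232 CPM (3126 to 3342), 1390 CPM and 634 CPM (602 to 668) in the high, middle and low cells, a log2 ratio of 2.35 (2.26 to 2.44). A UMI was present in every interferon-high cell, and in 98.3% of them when 2000 UMIs were drawn from each cell (thinning, below), against 55.7% of the low and 34.9% of the cancer-like cells. Shares after thinning are of the groups as chosen, whereas ratios after thinning are of cells ranked anew by their thinned counts. Ifit2, which binds foreign RNA and neighbors the ranking genes, was at 0 to 5719 CPM per cell (median 315) against 0 to 451 CPM (median 0). It had the largest log2 ratio on the list, at 4.91 (4.46 to 5.40; 3.82 after thinning and 3.49 against all other cells), with 551 CPM (508 to 598) summed over the interferon-high and 18.3 CPM (13.2 to 24.8) over the low cells. The GTPase Mx1 followed at 3.81 (2.93 to 4.82), on 79 and 12 UMIs. Mx1 and the RNA-binding Oasl1 (3.12, 2.79 to 3.47) thus stood well above the median of the list.

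The most abundant members differed less. Ifitm3, which blocks entry of viruses, was at 7003 CPM and 4606 CPM (log2 ratio 0.60, 0.56 to 0.65), and the virus tether Bst2 was at 4014 CPM and 2342 CPM (0.78, 0.72 to 0.84). Ly6a, the Sca-1 surface antigen, was at 4356 CPM and 2679 CPM. Ifitm2 was at 864 CPM and 886 CPM (-0.04, -0.15 to 0.08) and the mitochondrial protein gene Ifi27 was at 65.2 CPM and 119 CPM (-0.87, -1.27 to -0.49).

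**Figure D3:**
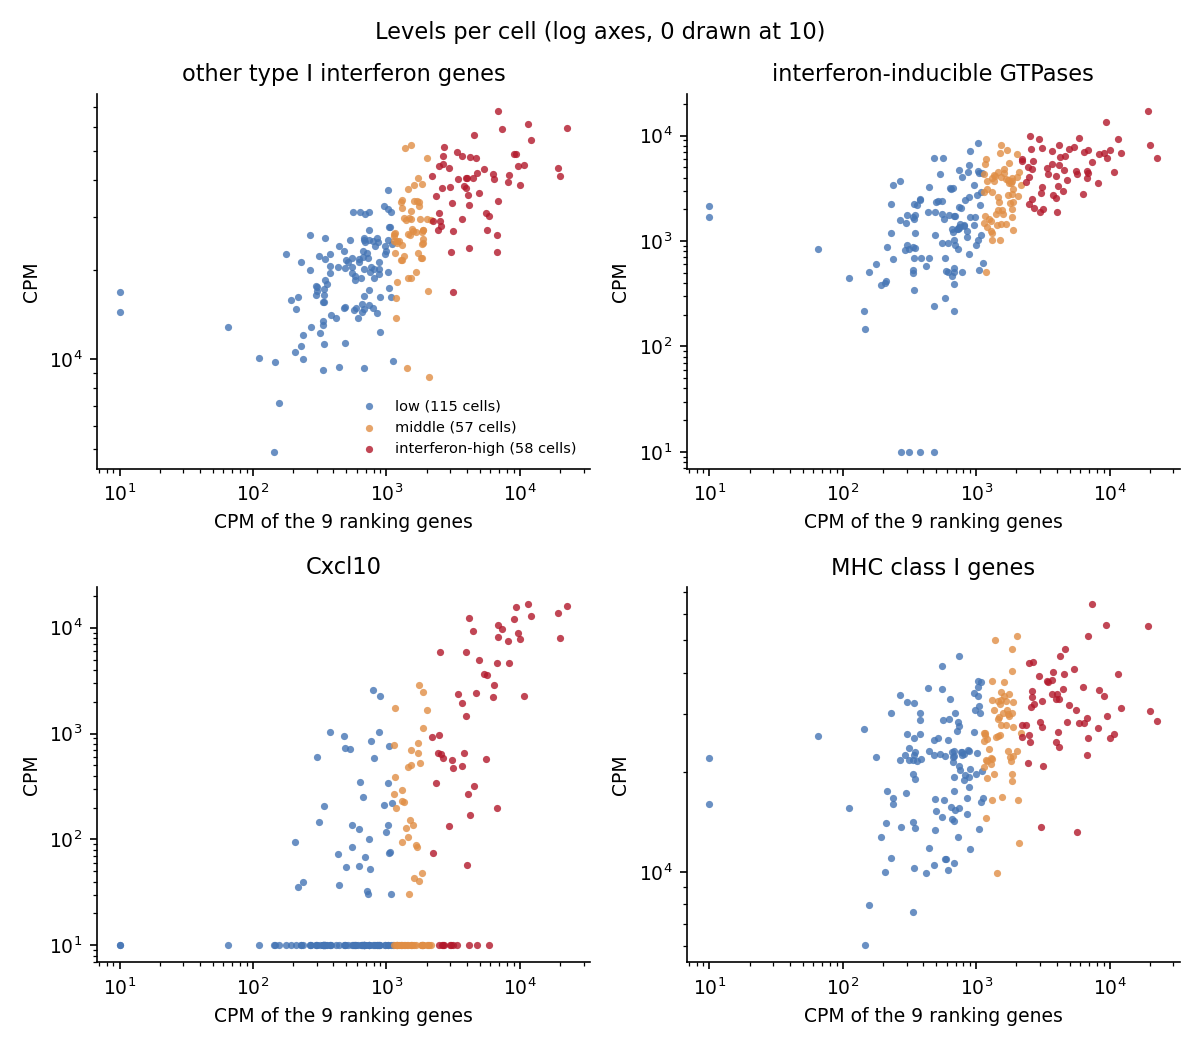
Level per cell of 4 measures not used for the ranking (y axes, CPM, log) against the CPM of the 9 ranking genes (x axes, log), 1 point for each of the 230 ECs, with 0 drawn at 10. Other type I genes, GTPases and MHC class I genes are higher in the interferon-high cells, whereas Cxcl10 is at 0 in most low cells and in 11 interferon-high cells and reaches 16735 CPM in others. Within the interferon-high and the low cells, the Spearman correlation with the ranking CPM was 0.35 and 0.48 for other type I genes. It was 0.35 and 0.34 for GTPases, and 0.14 and 0.21 for MHC class I genes.

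The IFN-inducible GTPases, which attack membranes of pathogens inside cells, were all in the same direction. All 14 compared were at least 2-fold higher (median log2 ratio 1.80, lowest 1.34, highest 2.97), and their sum was 5346, 3200 and 1677 CPM in the high, middle and low cells (1.67, 1.61 to 1.73). Gbp2 was at 0 to 3518 CPM per cell (median 628) in the interferon-high cells and 0 to 1545 CPM (median 131) in the low cells, and summed it was at 855 CPM (800 to 912) and 231 CPM (211 to 251). Igtp was at 493 CPM and 97.9 CPM (2.33, 2.10 to 2.56), Gbp5 at 172 CPM and 24.0 CPM (2.84, 2.40 to 3.30). Tgtp2 and Tgtp1 were at 61.5 and 32.6 CPM against 7.86 and 8.30 CPM, and since these copies are near-identical their split is uncertain.

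Receptors and their kinases were slightly higher, by under 2-fold, whereas several factors downstream were at least 2-fold higher. Ifnar1 was at 68.0 CPM and 56.8 CPM (log2 ratio 0.26, -0.17 to 0.68), Ifnar2 at 122 CPM and 113 CPM, the IFN-gamma receptor chain Ifngr1 at 134 CPM and 114 CPM, and Jak1 at 232 CPM and 203 CPM. All 9 genes compared of receptors, kinases and SOCS proteins were above 0 on the log2 scale (median 0.32). The list summed to 1098 CPM against 843 CPM (0.38, 0.28 to 0.49). Of the 9, the feedback inhibitor Socs1 was alone at 2-fold, at 66.1 CPM against 14.0 CPM (2.24, 1.62 to 2.89). No type I IFN gene was analysed here, and Ifng was at 0 UMIs in both groups, with exact upper limits of 3.44 CPM and 1.61 CPM.

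Of 12 IRF and STAT genes, 7 were at least 2-fold higher and 0 lower (median 1.20). Irf7, the factor that amplifies type I IFN, was at 118 to 4095 CPM per cell (median 1051) in the interferon-high cells and 0 to 2743 CPM (median 308) in the low cells. Summed, Irf7 was at 1178 CPM and 382 CPM (log2 ratio 1.63), Stat2 at 134 CPM and 42.8 CPM (1.65, 1.27 to 2.03) and Irf1 at 228 CPM and 89.1 CPM (1.36, 1.08 to 1.63). Irf9 was at 70.8 CPM and 51.6 CPM (0.46, 0.02 to 0.89). Irf8 was under 2-fold, at 257 CPM and 159 CPM (0.69, 0.46 to 0.92). Its share of cells with a UMI was 72.4% and 75.7%, and 31.0% and 27.0% after thinning (2.37% in the cancer-like cells), so a share of Irf8-positive cells did not separate the groups. Irf3 was at 22.4 CPM and 44.1 CPM (-0.98, -1.69 to -0.33), just under 2-fold. Of 9 sensors of RNA and DNA, 8 were at least 2-fold higher (median 1.74), among them the RNA sensors Ifih1 (MDA5) at 158 CPM and 27.5 CPM and Tlr3 at 67.1 CPM and 17.9 CPM. The exception was Tmem173, which encodes STING, at 122 CPM and 93.1 CPM (0.39, 0.07 to 0.71).

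CXCR3 ligands set the cells apart unevenly. Cxcl10 was at 0 to 16735 CPM per cell (median 1225) in the interferon-high cells, 0 to 2875 CPM (median 30.6) in the middle cells and 0 to 2599 CPM (median 0) in the low cells. Summed, Cxcl10 was at 4357 CPM (4233 to 4484), 335 CPM and 151 CPM (136 to 168), a log2 ratio of 4.85 (4.69 to 5.01), or 3.91 for the top against the bottom 50% and 5.46 for the top eighth of cells. A UMI was present in 81.0% of the interferon-high cells (68.6 to 90.1%) and 33.0% of the low cells (24.6 to 42.4%), and after thinning in 69.0% and 14.8%. In the cancer-like cells these shares were 30.8%, at a median of 55964 UMIs, and 5.92% after thinning. Cxcl9, its neighbor on chromosome 5, was high in both groups, at 0 to 23313 CPM per cell (median 2875) against 0 to 11357 CPM (median 670). Summed it was at 3824 CPM and 1514 CPM (1.34, 1.27 to 1.40, and 0.89 for the top against the bottom 50%), and after thinning it was present in 79.3% and 60.0% of the cells and in 1.78% of the cancer-like cells. Cxcl9 was thus shared by most TECs and Cxcl10 was concentrated in the interferon-high cells, of which 5 cells held 41.9% of the Cxcl10 UMIs.

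Other chemokines and adhesion molecules showed no common direction. Of 5 other chemokines compared, 2 were at least 2-fold higher: Cx3cl1, a membrane-bound chemokine, at 68.9 CPM and 20.1 CPM, and the monocyte chemokine Ccl2 at 541 CPM and 176 CPM (1.62, 1.44 to 1.81). Ccl2 rested on few cells, with 74.0% of its UMIs in 5 interferon-high cells, and was at 987 CPM in the cancer-like cells. Of 8 adhesion molecules, Vcam1 was alone at 2-fold, at 0 to 3643 CPM per cell (median 331) against 0 to 4056 CPM (median 66.7), and at 492 CPM and 176 CPM summed (1.48, 1.29 to 1.67). It was under 2-fold after thinning, at a log2 ratio of 0.47 (-0.18 to 1.10), and for the top against the bottom 50% (0.92, 0.75 to 1.10). Icam1 was at 157 CPM and 95.2 CPM (0.72, 0.43 to 1.02) and Icam2 at 496 CPM and 459 CPM. Of 14 NF-kB target genes, 5 were at least 2-fold higher and 0 lower (median 0.76), with the cytokine gene Il6 highest at 92.2 CPM and 23.2 CPM (log2 ratio 1.99). Of 19 immediate early and heat shock genes, which respond to tissue dissociation among other stresses, 2 were at least 2-fold higher (median 0.57), Hspa1a at 425 CPM and 167 CPM and Hspa1b. The part of this in the result was not tested.

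Antigen presentation through MHC class I differed by less, and class II differed little in sum. Of 21 class I genes, 5 were at least 2-fold higher and 0 lower (median 0.66), and the sum was 31547, 26407 and 21160 CPM (log2 ratio 0.58, 0.56 to 0.60). H2-K1 was at 1589 to 16608 CPM per cell (median 6205) against 292 to 10166 CPM (median 4009), and 6527 and 4278 CPM summed. The peptide transporter genes Tap1 (632 and 300 CPM) and Tap2 (356 and 168 CPM) and the class Ib gene H2-T23 (782 and 316 CPM) were among the 5. Of 6 class II genes, 0 were at 2-fold, and Cd74, the invariant chain, was at 461 CPM and 452 CPM (0.03, -0.13 to 0.18). The sums rested on few cells, with 51.3% and 49.1% of the Cd74 UMIs in 5 cells of each group. Per cell, class II genes had a median of 298 CPM in the interferon-high cells, with 12 of 58 at 0, and of 89.1 CPM in the low cells, with 42 of 115 at 0. Of 8 immune checkpoint and death ligand genes, 3 were at least 2-fold higher. Cd274, which encodes PD-L1, was at 178 CPM (154 to 205) and 18.3 CPM (13.2 to 24.8), a log2 ratio of 3.28 (2.79 to 3.80), or 2.27 (0.92 to 3.78) after thinning and a new rank. In the groups as chosen, it was present after thinning in 29.3% of the interferon-high, 3.48% of the low and 0% of the 169 cancer-like cells (upper limit 2.16%). Without thinning the shares were 70.7% and 20.9%, and 49 of the 169 cancer-like cells held a UMI. Ido1, an enzyme of tryptophan breakdown, was at 47.5 CPM and 6.12 CPM and the death ligand gene Tnfsf10 at 153 CPM and 27.5 CPM.

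**Figure D4:**
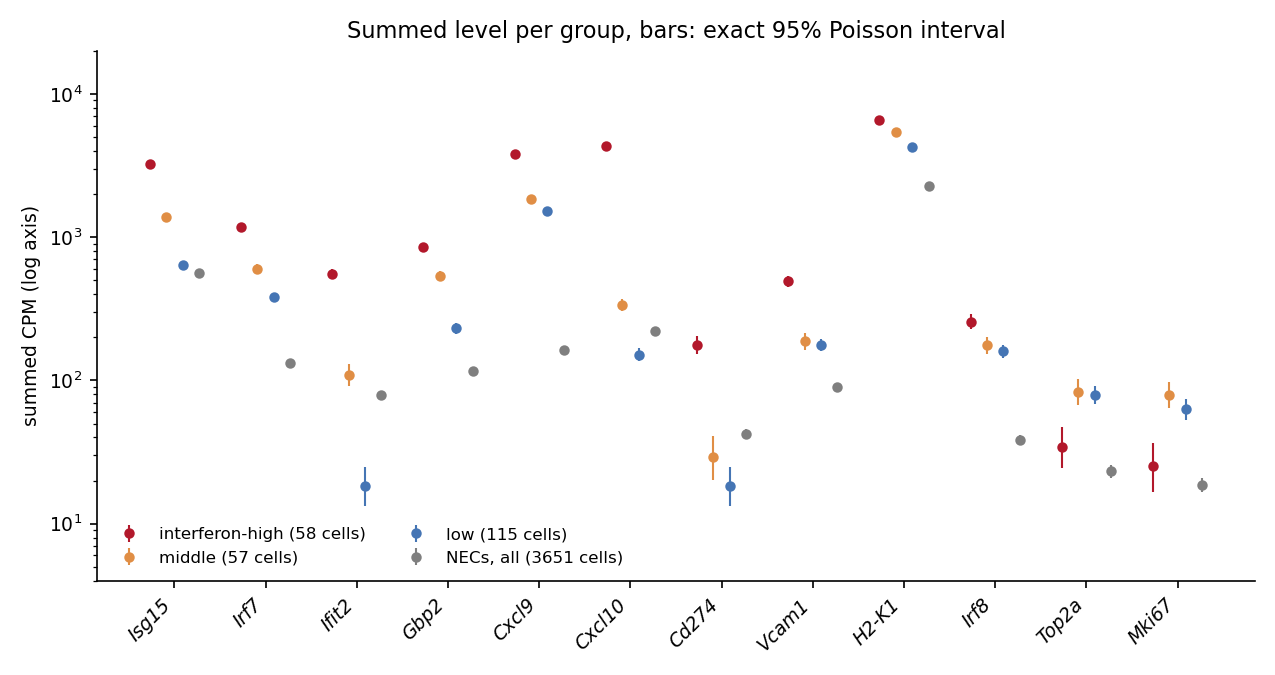
Summed CPM (y axis, log) of 12 genes in the interferon-high, middle and low TECs and in all 3651 NECs, with exact 95% Poisson bars. Cxcl10 and Ifit2 drop steeply from the interferon-high to the middle cells, Cxcl9, H2-K1 and Irf8 differ less between the 3 groups of TECs, and Top2a and Mki67 run the other way.

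Of genes outside the lists, the 15 with the largest ratios were Chga, Il15, F830016B08Rik, Aftph, Ms4a6b, Serpina3g, Sp140, Ccrl2, Ifi208, Pycard, Daxx, Trim12a, Apol9a, Ubd and Gm4951, with log2 ratios from 4.16 to 2.26. Il15, a cytokine that sustains T and NK cells, was at 0 to 673 CPM per cell (median 51.5) in the interferon-high cells and 0 to 250 CPM (median 0) in the low cells. Summed, Il15 was at 115 CPM (95.2 to 137) and 10.0 CPM (6.37 to 15.1), and it was present in 55.2% and 15.7% of the cells. Ubd, which encodes the ubiquitin-like FAT10, was at 1181 CPM and 242 CPM (2.28, 2.14 to 2.43), with 55.3% of its UMIs in 5 of the interferon-high cells. Chga, which encodes the secretory granule protein chromogranin A, had the largest ratio, at 548 CPM and 30.6 CPM (4.16, 3.80 to 4.54), but a UMI was present in 10.3% of the interferon-high and 8.70% of the low cells. The log2 ratio of the mean over cells was 2.60. Since 99.0% of its UMIs in the interferon-high cells were in 5 cells, the ratio of Chga rests on those cells.

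Proliferation genes were lower in the interferon-high cells. Of 15 mitosis genes, 9 were at least 2-fold lower and 0 higher (median log2 ratio -1.21), and of 14 S phase genes 10 were lower and 0 higher (median -1.13). Summed, mitosis genes were at 521, 1087 and 1131 CPM in the high, middle and low cells (-1.12, -1.25 to -0.99). S phase genes were at 432 and 975 CPM (-1.17, -1.32 to -1.03), and between -1.85 for the top eighth of cells and -0.64 for the top 50%. Per cell mitosis genes ran from 0 to 7452 CPM (median 55.6) in the interferon-high cells, with 20 cells at 0, and from 0 to 9932 CPM (median 116) in the low cells, with 31 at 0, so the groups overlapped. UMIs of at least 3 mitosis genes were present in 9 of 58 interferon-high cells (15.5%, 7.35 to 27.4%), 27 of 57 middle cells (47.4%) and 48 of 115 low cells (41.7%, 32.6 to 51.3%). After thinning, 19.0%, 36.8% and 38.3% had any mitosis UMI, against 75.7% of the cancer-like cells. The size depended on how the cells were taken: the log2 ratio of the sum was -2.95 for the top eighth of cells, -0.47 for a split in equal parts, -0.72 after thinning, -0.71 when cells were ranked within 3 ranges of total UMIs and -0.47 (-1.15 to 0.18) without cells that held 3 or more mitosis genes.

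Top2a, the topoisomerase of dividing cells, was at 34.5 CPM and 79.1 CPM (-1.20, -1.75 to -0.68), and 7 of the 58 interferon-high cells held a UMI. Its log2 ratio was -3.47 for the top eighth of cells, -0.21 (-0.62 to 0.19) when cells were ranked within 3 ranges of total UMIs and 0.021 without cells that held 3 or more mitosis genes. Mki67 was at 25.1 CPM and 62.9 CPM (-1.32, -1.97 to -0.72), in 5 of the 58. Dnmt1, the maintenance DNA methyltransferase, was at 25.1 CPM (16.6 to 36.6), 30.9 CPM and 36.7 CPM (29.3 to 45.4), and the interval of its log2 ratio included 0 (-0.55, -1.23 to 0.10). A Dnmt1 UMI was present in 32.8% of the interferon-high and 33.0% of the low cells. The log2 ratio of Dnmt1 was -1.56 (-2.92 to -0.45) for the top eighth of cells and -0.77 (-1.52 to -0.08) without cells that held a UMI of Rhox5, Hmga2 or Krt8. It was -0.08 (-0.67 to 0.49) when cells were ranked within 3 ranges of total UMIs. After thinning it was -0.01 (-2.19 to 1.89), an interval too wide to show a difference or its absence. Of the interferon-high cells, 15 (25.9%, 15.3 to 39.0%) held UMIs of both Cxcl10 and Dnmt1 and 17 (29.3%, 18.1 to 42.7%) of both Cxcl9 and Dnmt1, against 14.8% and 27.0% of the low cells. Cells with a Cxcl10 UMI numbered 47 in the interferon-high and 38 in the low group, and of these 15 and 17 held Dnmt1. The larger share with both genes therefore does not show more Dnmt1 among interferon-high cells with Cxcl10. Uhrf1, which guides DNMT1 to replicated DNA, was below the level for comparison, at 3.73 CPM and 34.9 CPM (4 and 80 UMIs).

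Most genes of hypoxia and glycolysis had ratios below 0. Of 18, 4 were at least 2-fold lower and 1 higher (median log2 ratio -0.72), and 16 were below 0. Per cell the sum ran from 2986 to 12556 CPM (median 5764) in the interferon-high cells and from 2743 to 35530 CPM (median 7779) in the low cells, so that the highest levels were in low cells. The oxygen sensor Egln3, at 5.59 CPM and 37.1 CPM, and the glycolytic enzyme gene Tpi1, at 230 CPM and 507 CPM, were among the 4. The glycolytic genes Pgk1 (360 and 609 CPM), Ldha (543 and 865 CPM) and Gapdh (1712 and 2698 CPM) were under 2-fold. Pfkfb3, which drives glycolysis in ECs, ran the other way, at 84.7 CPM and 38.0 CPM (1.16, 0.72 to 1.60). Of the 15 genes outside the lists with the largest ratios downward, Slc16a3, a lactate exporter, was at 26.1 CPM and 102 CPM (-1.96, -2.59 to -1.40) and the cytokine Mif at 237 CPM and 578 CPM (-1.29, -1.49 to -1.09). The others were Hist1h2ap, 8430408G22Rik, Mest, Hmgn5, Dctpp1, H2afx, Nop58, Slco2a1, AC160336.1, Dtymk, Akr1b8, Timm8a1 and Hmgb2, of which the histone genes Hist1h2ap and H2afx and the chromatin gene Hmgb2 are high in dividing cells. Hypoxia genes were at 14365 CPM in the cancer-like cells, and Mif and Slc16a3 were at 1879 and 330 CPM there; the part of RNA from these cells in the difference was not tested.

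Tip cell genes, which mark ECs at the front of a sprout, were equal in sum and split by gene. The sum was 8625, 7869 and 8517 CPM (log2 ratio 0.02, -0.02 to 0.05), and of 17 genes 2 were at least 2-fold lower and 0 higher (median 0.00). The 2 were the peptide hormone gene Adm, at 83.8 CPM and 311 CPM (-1.89, -2.22 to -1.57), and the potassium channel subunit gene Kcne3, at 64.3 CPM and 173 CPM. An Adm UMI was present in 41.4% and 40.0% of the cells, 49.2% of the UMIs of the low cells were in 5 cells, and for the top against the bottom 50% the log2 ratio of Adm was -0.60 (-0.77 to -0.43), under 2-fold. Pgf (210 and 401 CPM), Esm1 (231 and 423 CPM) and Apln (356 and 563 CPM), all secreted, were also lower, by under 2-fold. Of the 17 genes, 9 had ratios above 0. The sum gives most weight to abundant genes, such as the collagen genes Col4a1 and Col4a2. Their medians per cell were 2537 and 1407 CPM in the interferon-high cells and 2050 and 1188 CPM in the low cells. The Notch ligand gene Dll4 was at 278 CPM and 202 CPM (0.46, 0.24 to 0.67), and Angpt2 at 556 CPM and 555 CPM. Of 9 capillary genes 1 was 2-fold lower: Fabp5 was at 97.8 CPM and 369 CPM (-1.91, -2.22 to -1.62) and the related Fabp4, also a carrier of fatty acids, at 1454 CPM and 2748 CPM. The log2 ratio of Fabp4 was -0.92, and -1.65 without cells that held 3 or more mitosis genes.

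Of 8 arterial genes, 4 were at least 2-fold higher (median 1.01): the guidance gene Sema3g (46.6 and 16.2 CPM), the connexin genes Gja5 (28.9 and 11.8 CPM) and Gja4 (103 and 48.5 CPM), and Fbln5 (75.4 and 31.0 CPM), of elastic fibers. These were carried by few cells. Gja5 had a UMI in 6 and Gja4 in 10 of the 58, with 96.8% and 86.5% of the UMIs in 5 cells. The log2 ratio of the summed list was 0.75 (0.60 to 0.91), 0.34 for the top eighth of cells and 0.42 (-0.11 to 0.94) after thinning.

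The 58 cells were themselves uneven, and were divided at the median of Cxcl10, a split that was chosen after the values were seen. In 29 cells Cxcl10 was at 1471 to 16735 CPM, and in the other 29 at 0 to 978 CPM, at medians of 20971 and 17523 UMIs. The ranking genes were higher in the former, with a median of 6824 CPM against 3116 CPM. Other type I genes differed little (41669 and 37135 CPM, log2 ratio 0.17, 0.14 to 0.19), as did MHC class I genes (0.01, -0.02 to 0.04) and Irf7 (1138 and 1227 CPM). Ifit2 (758 and 298 CPM), Isg15 (4017 and 2272 CPM), Cxcl9 (5337 and 1969 CPM), Cd274 (252 and 87.0 CPM) and Il15 (172 and 43.5 CPM) were higher in the cells with more Cxcl10, and so were Il6 (145 and 26.9 CPM) and Serpina3g (357 and 20.7 CPM). MHC class II genes were at 1179 CPM against 659 CPM (0.84, 0.65 to 1.03), with 51.3% of the Cd74 UMIs of the 58 cells in 5 cells. GTPases (0.54) and NF-kB targets (0.48) stood between.

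Most lists of vessel genes were at fewer CPM in the cells with more Cxcl10. Arterial genes were at 257 CPM in the cells with more Cxcl10 and at 897 CPM in the others (log2 ratio -1.80, -2.08 to -1.53), VEGF and Notch genes were at 2711 and 4531 CPM (-0.74, -0.83 to -0.65), and capillary genes at 5686 and 8674 CPM (-0.61, -0.68 to -0.54). Over all interferon-high cells arterial genes had a median of 303 CPM per cell and a maximum of 6034 CPM, with Gja4 and Gja5 carried by few cells. How far the arterial ratio rests on those cells was not tested. Gja4 was at 8.46 and 220 CPM, Efnb2 at 44.0 and 155 CPM, Fabp4 at 766 and 2296 CPM and the retinol carrier gene Rbp7 at 69.3 and 427 CPM. Pan-endothelial genes moved with these, at 9455 and 12881 CPM (-0.45, -0.50 to -0.39), and their part in the differences was not tested. Venous genes were the exception, at 1395 and 1169 CPM (0.26, 0.10 to 0.41). S phase genes were at 318 and 572 CPM (-0.85, -1.12 to -0.57), and for mitosis genes the interval included 0 (-0.13, -0.38 to 0.11).

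**Figure D5:**
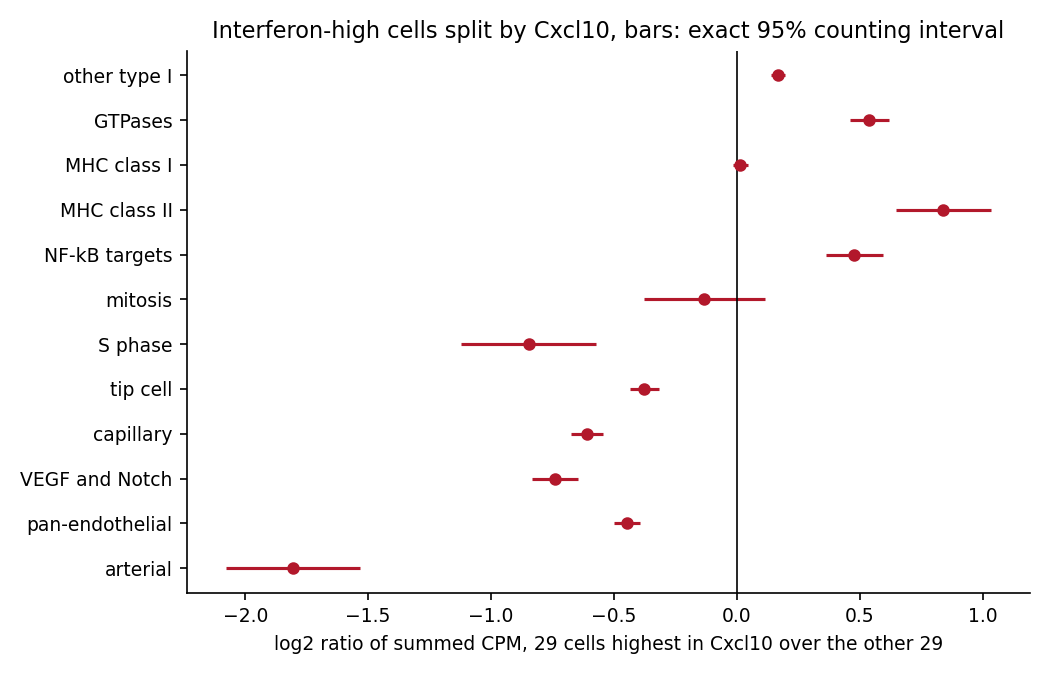
Log2 ratio of summed CPM (x axis) for 12 lists, between the 29 interferon-high cells with the most Cxcl10 and the other 29, with exact 95% counting intervals. Other type I and MHC class I genes lie near 0 at 0.17 and 0.01, MHC class II genes are highest at 0.84 and arterial genes lowest at -1.80. Several genes of these last 2 lists were carried by few cells, which the intervals do not cover.

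The same rank was made in the 3651 NECs of the same filters, a library of shallower cells (median 3532 UMIs). Thinned to 2000 UMIs, 82 of 230 TECs (35.7%, 29.5 to 42.2%) had at least 4 UMIs of the 9 genes, as had 814 of 3651 NECs (22.3%) and 11 of 169 cancer-like cells (6.51%). The top 25% of NECs were at 3119 CPM of the 9 genes and the bottom 50% at 245 CPM. Over these groups the log2 ratio was 0.69 for other type I genes, 1.43 for GTPases, 0.33 for MHC class I and 1.11 for CXCR3 ligands. Cxcl10 was at 389 CPM and Cxcl9 at 200 CPM in the top NECs, against 4357 and 3824 CPM in the interferon-high TECs. Other type I genes were at 25432 CPM in the top NECs and 39632 CPM in the interferon-high TECs. The 9 ranking genes, whose levels the choice of cells set, were together at 3119 and 6042 CPM. Ifit1, 1 of the 9, ran the other way, at 849 and 569 CPM. With 1 library of each kind, tumor and library cannot be told apart.

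The ISRE core was present in 29 of 60 promoters of other type I genes (48.3%), 9 of 10 of GTPases (90.0%) and 5 of 19 of MHC class I genes (26.3%), against 3.99% of all 27025 promoters. Of the genes at least 2-fold higher, 52 of 207 with a window held it (25.1%), and outside the lists 20 of 132 (15.2%). Of the genes at least 2-fold lower, 1 of 110 held it (0.909%), and of all genes compared 4.56%. The GAS core TTCNNNGAA was present in 6 of 10 GTPase promoters and 9.55% of all promoters. It was present in 0 of 7 promoters of ranking genes, 9 of 60 of other type I genes and 2 of 19 of MHC class I genes. Of the genes at least 2-fold higher 29 of 207 (14.0%) held it, of those lower 6 of 110 (5.45%), and of all genes compared 7.89%. A match is a run of letters and not a measured site.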

How the data were processed

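The authors deposited 1 table of raw UMI counts per library, with genes in rows and barcodes in columns and no normalization. The submitters' processing notes name Cell Ranger, Seurat and the build mm10, and the version of Cell Ranger and the annotation are not given in the sources used here. Gene positions are from GENCODE (GRCm38).

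Cells were filtered and ranked as described, and sums of UMIs were expressed as CPM of all UMIs of a group. Intervals are exact Poisson (sums), Clopper-Pearson (shares) or conditional binomial (ratios), at 95%. Tools were numpy 2.4.6, scipy 1.17.1, matplotlib 3.10.9 and Python 3.11.15. The ratio was run on simulated sums with counting error only. Variation between cells was not simulated, so that run cannot show how the intervals hold for these data. The cells and gene lists were chosen with earlier results of these data known.

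Named genes were the 9 ranking genes, list members that lead by level or ratio (up to 10 a list), Irf8, Ifit2, Isg15, Cxcl9, Cxcl10, Dnmt1 and Top2a, and, outside the lists, the 15 largest ratios each way among genes with a mean of 50 CPM and 10 UMIs in both groups. Uhrf1, Rbp7, Ifng, Cd3e, Lyz2, Hmga2 and Krt8 were named after their values were seen. Cxcl11 was not analysed here, and values of 1 further gene are not reported here. Alternatives changed the depth limit (1000 or 5000 UMIs), thinning, the mean over cells, the share of cells taken, the comparison group, the ranking genes, the limits on cancer genes and mitochondrial UMIs, mitotic cells and the level for comparison (5 or 50 CPM). For ratios after thinning, the rank was made anew from the thinned counts.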

Additional observations from a re-analysis of the deposited data

Results flagged for a closer look

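Among lists with at least 3 genes compared, 5 had opposite signs in TECs and NECs with both counting intervals beyond 0, for the ratio of the interferon-high over the low cells. The log2 ratio was 0.76 in TECs and -0.51 in NECs for other chemokines, 0.34 and -2.75 for leukocyte adhesion molecules, 0.17 and -0.94 for MHC class II genes, 0.75 and -0.20 for arterial genes and 0.43 and -0.85 for venous genes. Over single adhesion genes the median in NECs was 0.13, of the other sign than their sum. In TECs the median over single venous genes was 0.12, with 1 of 8 at least 2-fold higher and 1 at least 2-fold lower. Vcam1 is on both the venous and the adhesion list and had the largest log2 ratio of each in TECs, at 1.48. These 2 lists are therefore not separate observations. Other chemokines summed to 888, 521 and 525 CPM in the high, middle and low TECs. Of the UMIs of Ccl2, a member of that list, 74.0% in the interferon-high cells were in 5 cells, which the counting interval does not cover. Of the lists with fewer genes compared, epithelial and cancer cell genes were at -2.19 in TECs and 0.23 in NECs. The difference between TECs and NECs was not tested, since each has 1 library.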

How the results depend on the processing

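Other type I genes (log2 ratio 1.05 as reported), GTPases (1.67), CXCR3 ligands (2.30), MHC class I (0.58) and mitosis genes (-1.12) kept their sign under all 12 alternatives. Dnmt1 (-0.55) was also below 0 in each, but its interval as reported, -1.23 to 0.10, included 0, so its direction is not settled. For the values below, which left their counting interval, the cause was not tested. After thinning they were 0.91, 1.53, 2.02 and, for mitosis, -0.72, for the top eighth 1.16, 1.83, 2.77, 0.62, -2.95 and, for Dnmt1, -1.56, and for the top against the bottom 50% 0.80, 1.33, 1.61, 0.45 and -0.47. Against all other cells they were 0.86, 1.29, 2.15 and 0.46. Ranked by 6 genes, type I genes and GTPases were at 1.02 and 1.59. Under 5% mitochondrial UMIs, type I, GTPases, class I and mitosis were at 1.02, 1.54, 0.54 and -0.95, and without cells with 3 or more mitosis genes at 1.10, 1.51, 0.52 and -0.47, with CXCR3 ligands at 2.16. Ranked within 3 ranges of UMIs, type I, CXCR3 ligands, class I and mitosis were at 1.02, 2.22, 0.54 and -0.71. Without any cancer gene UMI, GTPases and CXCR3 ligands were at 1.56 and 2.39, from 5000 UMIs CXCR3 ligands and mitosis were at 2.36 and -0.97, and as a mean over cells CXCR3 ligands and class I were at 2.18 and 0.62. The sum of tip cell genes (0.02) stayed within 0.12 of 0, which does not hold for each gene of the list. It was at 0.12 after thinning, 0.079 as a mean over cells and 0.056 against all other cells. Below 0 it was at -0.028 under 5% mitochondrial UMIs, -0.037 within ranges of UMIs, -0.049 for the top 50% and -0.071 without mitotic cells. Without mitotic cells Top2a was at 0.021 (-1.20 as reported), on few UMIs. Counts of genes 2-fold higher (262) and lower (137) were 642 and 585 after thinning, 149 and 25 for the top 50%, 153 and 51 from 50 CPM and 499 and 461 from 5 CPM, and the count lower was 250 for the top eighth and 80 within ranges of UMIs. Ratios of 16 more genes and lists under these alternatives were chosen after seeing the data, and the largest moves are given beside those genes. No paired analysis was possible because each condition has 1 library.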
